A study of Mus musculus with 106 samples.

Results

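Males and females were compared within each of 9 inbred mouse strains on chow, over the autosomal genes of the liver, to see which differences every strain shared and which depended on the strain. The comparison used 53 of the 106 liver RNA-seq libraries of the series, 27 from males and 26 from females, and 13896 autosomal genes of the 14330 genes in the count table. The strains were the 8 founders of the Collaborative Cross (C57BL/6J, 129S1/SvImJ, A/J, NOD/ShiLtJ, NZO/HlLtJ and the wild-derived CAST/EiJ, PWK/PhJ and WSB/EiJ) and DBA/2J. NOD/ShiLtJ is a model of autoimmune diabetes and NZO/HlLtJ one of polygenic obesity. Each strain had 3 males and 3 females on the chow diet (Harlan 2018), and 52 further libraries came from mice on a high-fat diet. High-fat feeding began at week 8 of age, and at week 21 all mice were killed in the morning, bled and perfused with saline before the liver was taken. The labels name no engineered allele and no drug in any group.

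The adult mouse liver is among the tissues with the most sex-biased transcription outside the gonads. As background, the pituitary releases growth hormone in pulses in males and almost continuously in females. Each pulse activates the transcription factor STAT5B in hepatocytes, and factors such as CUX2 and TRIM24 in females and BCL6 in males act with it on the genes of steroid, drug and lipid metabolism and of pheromone carriers. The best known outputs are the major urinary proteins and male cytochromes P450 in males, and steroid sulfotransferases and Cyp2b, Cyp2c and Cyp3a enzymes in females.

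Gene counts per library ran from 38773478 to 63341708 (median 51520770), and the 10 most abundant genes took 14.7 to 24.8% of them. Reads that mapped to several places were a larger share in males (median 21.5%) than in females (median 16.9%). The X-linked Xist stood at 186 to 394 counts per 1000000 (CPM) in the 26 female libraries and at 0.0516 to 2.41 CPM in the 27 male ones. One library, labelled 129S1/SvImJ female CD 1, was left out of every test: it held Xist at 0.923 CPM and the Y-linked Ddx3y at 60.4 CPM, within the male range of 35.2 to 80.1 CPM, so 129S1/SvImJ females have n = 2. Each p-value of the main fit rests on the spread between mice of the same group, estimated jointly over the groups of all strains. A p-value within a strain thus does not measure the spread of that strain alone, and a library of another strain can change it. In all 9 strains the animal numbers of males and females fall in ranges that do not overlap, so a sex difference within a strain cannot be told apart from a difference between the cohorts those numbers may mark. Bulk RNA also cannot separate fewer cells of a type from less RNA per cell. A set of 3 libraries stood apart, and the main counts and some of the values that rest on them are given with and without them: WSB/EiJ male CD 3, C57BL/6J male CD 3 and NZO/HlLtJ male CD 2.

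Averaged over the 9 strains, 4771 autosomal genes (34.3% of 13896) differed between the sexes at an adjusted p of 0.05 (edgeR quasi-likelihood F test, Benjamini-Hochberg adjustment over all genes). Of these, 2379 (17.1%) were higher in males and 2392 (17.2%) higher in females. Most were small: their median absolute log2 fold change was 0.28, and 376 genes (2.71%) reached a log2 fold change of 1, 192 of them higher in males and 184 higher in females. With library size alone as the scaling, the average calls split into 1309 higher in males and 3932 higher in females, so the balance of directions among small differences depends on the scaling. When each strain was treated as 1 observation (limma over the 9 strain differences), 1770 genes passed, 1742 of them among the 4771. Of the genes named below, the averages of Car3, Ccl5, Cd3g, Cd4, Cd68, Cd8a, Csf1r, Dbp, Grb10, Igf1, Lgr5, Msmo1, Pdk4 and Pparg did not pass in that test (adjusted p between 0.0544 and 0.241, limma). In this text a log2 fold change is male over female, so that a negative value is higher in females, and its standard error (SE) comes from the same fit.

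A count of 49 autosomal genes (0.353%) passed in all 9 strains in 1 direction, 31 higher in males and 18 higher in females, out of 4995 that passed in at least 1 strain. Another 3396 passed in exactly 1 strain, 832 in 2, 313 in 3 and 162 in 4. A further 98 passed in 5, 67 in 6, 36 in 7 and 42 in 8. A wider count, of genes past the average test whose mean log2 CPM lay on the same side in all 9 strains, came to 987 (7.1%), 480 higher in males and 507 higher in females. Of the 4771 average calls, 2555 had the same side in at least 8 strains and 4010 in at least 7. Passing in each of 9 small comparisons is thus a stricter measure than direction. The test that the 9 strains have 1 common sex difference (an F test of the sex by strain interaction with 8 degrees of freedom) was passed by 1842 genes (13.3%), and 986 of those also passed the average test. Of the 49 genes called in every strain 43 passed it, and of the 987 with 1 direction of the means 192 did. With WSB/EiJ male CD 3 left out the interaction count rose to 2983, and with the libraries that stand apart left out together to 3318, while the shared count was 59.

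**Figure D1:**
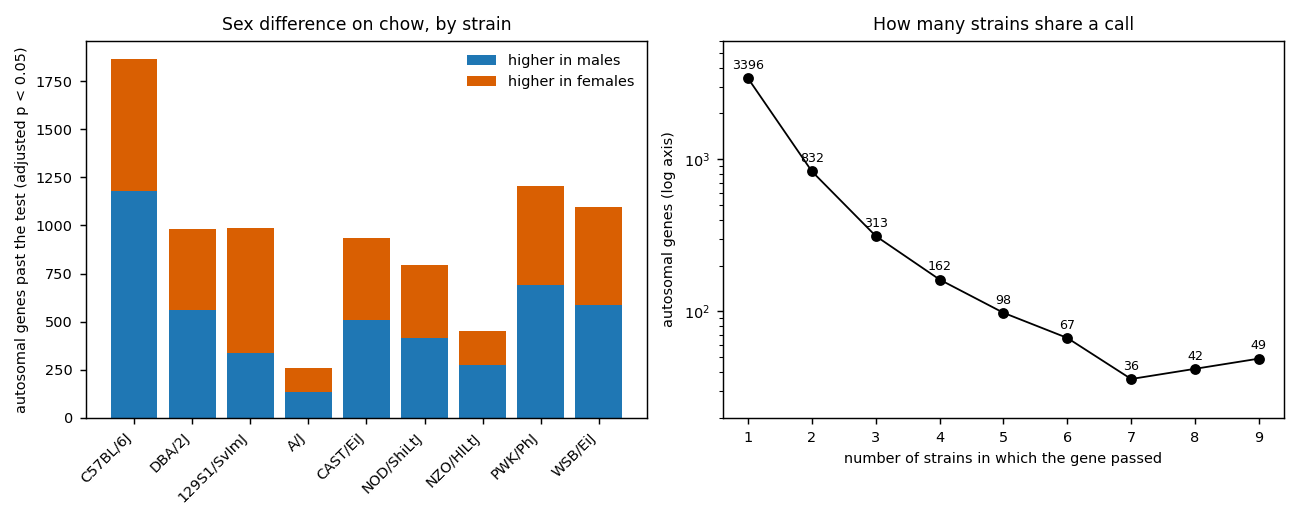
Autosomal genes past the sex test in each strain, split by direction (left), and the number of genes that passed in exactly 1 to 9 strains (right, log axis). C57BL/6J has the most calls in this fit and A/J the fewest, an order that changes when each strain is fitted alone, and 49 genes passed in all 9 strains.

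Of the 49 shared genes, 47 are protein-coding. They include 12 of the 20 major urinary protein (Mup) genes measured, 9 of the 73 cytochromes P450 (Cyp) and 4 of the 16 sulfotransferases (Sult), and 16 lie on chromosome 4, which holds the Mup cluster and the Cyp4a genes. The promoters of 2 shared Mup and 2 shared Cyp3a genes are printed here to show the sequence that members of a family have in common, with that of A1bg. They run from 250 bases before to 50 after the RefSeq start site (GRCm38.p6), on the minus strand in each case: Mup7 at chr4:60070426-60070725, Mup21 at chr4:62150792-62151091, Cyp3a41a at chr5:145720087-145720386, Cyp3a44 at chr5:145805825-145806124 and A1bg at chr15:60921221-60921520. Capitals mark ATCAAT, a core letter string of HNF6 and CUX factors, in the first 4, and TTCNNNGAA, that of STAT5, in A1bg.
Mup7: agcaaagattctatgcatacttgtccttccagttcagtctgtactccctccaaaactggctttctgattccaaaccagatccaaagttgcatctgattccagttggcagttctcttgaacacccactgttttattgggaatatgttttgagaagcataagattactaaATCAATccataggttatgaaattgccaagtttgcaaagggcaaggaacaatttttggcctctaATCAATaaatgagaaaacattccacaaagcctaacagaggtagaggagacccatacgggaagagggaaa
Mup21: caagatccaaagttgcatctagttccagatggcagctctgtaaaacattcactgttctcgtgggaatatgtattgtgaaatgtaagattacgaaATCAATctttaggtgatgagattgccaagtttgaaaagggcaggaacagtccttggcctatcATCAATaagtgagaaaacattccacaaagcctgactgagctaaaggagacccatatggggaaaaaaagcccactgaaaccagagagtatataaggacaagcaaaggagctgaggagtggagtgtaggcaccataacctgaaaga
Cyp3a41a: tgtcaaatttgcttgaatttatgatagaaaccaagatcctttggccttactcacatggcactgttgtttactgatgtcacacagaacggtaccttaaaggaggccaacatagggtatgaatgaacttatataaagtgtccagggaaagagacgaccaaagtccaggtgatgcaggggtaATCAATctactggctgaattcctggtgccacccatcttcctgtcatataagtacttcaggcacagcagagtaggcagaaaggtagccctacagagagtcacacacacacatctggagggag
Cyp3a44: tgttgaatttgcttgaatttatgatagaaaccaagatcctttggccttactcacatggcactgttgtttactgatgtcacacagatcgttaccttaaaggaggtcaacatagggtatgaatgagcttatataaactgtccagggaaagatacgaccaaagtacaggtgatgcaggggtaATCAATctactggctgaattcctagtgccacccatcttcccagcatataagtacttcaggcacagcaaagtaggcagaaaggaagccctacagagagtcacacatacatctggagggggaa
A1bg: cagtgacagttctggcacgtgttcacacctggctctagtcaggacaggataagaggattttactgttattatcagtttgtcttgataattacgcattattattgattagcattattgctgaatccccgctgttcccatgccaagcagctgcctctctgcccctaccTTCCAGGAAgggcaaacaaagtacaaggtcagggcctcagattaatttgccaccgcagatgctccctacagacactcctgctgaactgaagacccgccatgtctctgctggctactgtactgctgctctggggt

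Each of the 7 shared Mup genes with a promoter in the RefSeq table held ATCAAT at 2 positions, 62 bases apart in Mup3 and Mup21 and 63 bases apart in the other 5. In Cyp3a41a, Cyp3a41b and Cyp3a44 the string starts 71 bases before the start site, and these promoters are 92 to 97.3% identical base by base. Over both strands, ATCAAT or ATCGAT was found in 8 of the 21 male-higher shared genes with a promoter (38.1%), 7 of them Mup genes and the other C8a, and in 7 of the 15 female-higher ones (46.7%). The share was 6.41% of the 10259 measured autosomal genes with a promoter and 9.55% of all 27025 promoters of the table. TTCNNNGAA was in 3 male-higher (14.3%) and 2 female-higher genes (13.3%), against 8.44% of measured genes. GTAAACA, of FOXA factors, was in 0 male-higher and 4 female-higher genes (26.7%), against 3.38%. CAAAGTCCA, of HNF4A, was in 0 male-higher genes and in 3 female-higher ones (20%), against 0.731%. No match of 1 motif overlapped a match of another in the printed promoters. Family members share sequence by descent, so these matches are not independent, and they describe letters and not binding.

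The male-higher shared genes were led by fatty acid hydroxylases and urinary proteins. Cyp4a12a, a fatty acid omega-hydroxylase, ran from 98.2 to 776 CPM (median 454) in the 27 male libraries and from 0.0739 to 10.2 CPM (median 0.575) in the 26 female ones, and the sexes did not overlap. Its average log2 fold change was 8.77 (SE 0.27, adjusted p = 3.22e-27, edgeR). The difference was smallest in PWK/PhJ, with males at 581, 516 and 614 CPM and females at 9.35, 7.49 and 10.2 CPM, and in CAST/EiJ, where females held 8.8, 9.12 and 3.61 CPM. It was the females of these strains that stood above those of the other 7 strains, while their males lay inside the range of the others. The neighbouring Cyp4a12b showed the same females more strongly: 112, 102 and 108 CPM in PWK/PhJ against 0 counts in all 3 WSB/EiJ females, which puts WSB/EiJ males at least 1157-fold higher, taking 3 counts over the group as the floor. The 2 transcripts share 41.3% of the 75-base windows of Cyp4a12b, so the split of reads between them is uncertain.

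Urinary proteins are lipocalins that carry pheromones into the urine, and all 20 Mup genes measured were higher in males on average. Mup20, known as darcin, ran from 1.26 to 11541 CPM (median 913) in males and from 0.137 to 43.1 CPM (median 7.43) in females, with an average log2 fold change of 5.95 (SE 0.20, adjusted p = 3.84e-26, edgeR). C57BL/6J males held 4546, 6463 and 11541 CPM and CAST/EiJ males 1.26, 1.7 and 2.34 CPM, below the C57BL/6J females at 36.7, 43.1 and 26 CPM. The sexes of CAST/EiJ still separated, its females standing at 0.499, 0.384 and 0.137 CPM. Mup7 ran from 9.97 to 2246 CPM (median 185) in males and from 0.037 to 11.1 CPM (median 0.733) in females, with an average of 7.72 (SE 0.24). Mup21, which shares 10.3% of its 75-base windows with another gene and is thereby among the better resolved Mup genes, ran from 11.8 to 1837 CPM (median 362) in males and from 0.293 to 6.29 CPM (median 2.38) in females. Its sexes did not overlap over all 53 libraries, and its average was 6.69 (SE 0.25). The other shared Mup genes averaged 5.70 (Mup12), 5.59 (Mup14), 5.51 (Mup1), 5.13 (Mup8), 5.08 (Mup17), 3.88 (Mup9), 3.88 (Mup13), 3.45 (Mup2) and 3.12 (Mup3). The averages of Mup8 and Mup13 each include 1 strain whose females had 0 counts, where the fitted value depends on the prior count. Levels of single Mup genes are uncertain, since 12 of the 49 shared genes have at least 50% of their windows in another gene: 9 of these Mup genes, Cyp3a41a, Cyp3a41b and Ugt1a1.

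Other male-higher shared genes act in steroid hydroxylation, fatty acid elongation and transport. Cyp2d9, a testosterone 16-alpha-hydroxylase, ran from 538 to 3315 CPM (median 2019) in males and from 4.6 to 187 CPM (median 32.6) in females without overlap (log2 fold change 5.45, SE 0.18, adjusted p = 2.29e-26, edgeR). The highest female values were in CAST/EiJ (152, 124 and 178 CPM), A/J (113, 159.7 and 115 CPM) and NOD/ShiLtJ (147, 135 and 187 CPM). Elovl3, an elongase of very long fatty acids, ran from 52.9 to 926 CPM (median 275) in males and from 2.37 to 15.4 CPM (median 5.25) in females, again without overlap (log2 fold change 5.55, SE 0.20). Pitx3 (5.41), on the other strand, overlaps Elovl3 by a few bases where the ends of the genes meet. The strand setting of the counts is not given, and whether reads of Elovl3 (mean 169 CPM) enter Pitx3 (mean 2.49 CPM) was not tested. Slco1a1, an organic anion importer, ran from 112 to 977 CPM (median 329.9) in males and from 5.15 to 318 CPM (median 39.1) in females (log2 fold change 3.09, SE 0.17). Cyp7b1, the oxysterol 7-alpha-hydroxylase, ran from 56.8 to 1414 CPM (median 357) in males and from 8.52 to 551 CPM (median 35.1) in females, and the 3 highest female values were those of PWK/PhJ (551, 257 and 413 CPM), whose males held 1414, 1311 and 1397 CPM.

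Genes of the terminal complement pore were shared as well. C6 (3.63), C8a (2.08) and C8b (2.15) encode proteins that assemble with C9 into the membrane attack complex, and each was higher in males of all 9 strains. C8b stood at from 147 to 929.7 CPM (median 319) in males and from 20.9 to 220.1 CPM (median 79.4) in females. C9 averaged 2.35 and passed in 8 strains, the exception being A/J, with males at 329, 194 and 231 CPM and females at 139, 169.6 and 124 CPM. C8g, the third chain of the C8 protein, differed far less: its average log2 fold change was 0.44 and it passed in 3 strains. The remaining male-higher shared genes were Nat8f5, an acetyltransferase family member, C330002G04Rik (4.97), a long noncoding RNA, and Susd4 (4.18), a sushi-domain regulator of complement. Nat8f5 had 0 counts in the females of 4 strains, among them DBA/2J, where males were at least 21-fold higher with the floor of 3 counts over the group. The list goes on with Omd (3.85), an extracellular matrix proteoglycan, Nox4 (3.70), an NADPH oxidase, and Slc15a5 (2.65), a solute carrier. The list ends with Nudt7 (2.08), a peroxisomal coenzyme A hydrolase, Ces3a (1.79), a carboxylesterase, and Mug1 (1.60), a protease inhibitor of plasma.

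**Figure D2:**
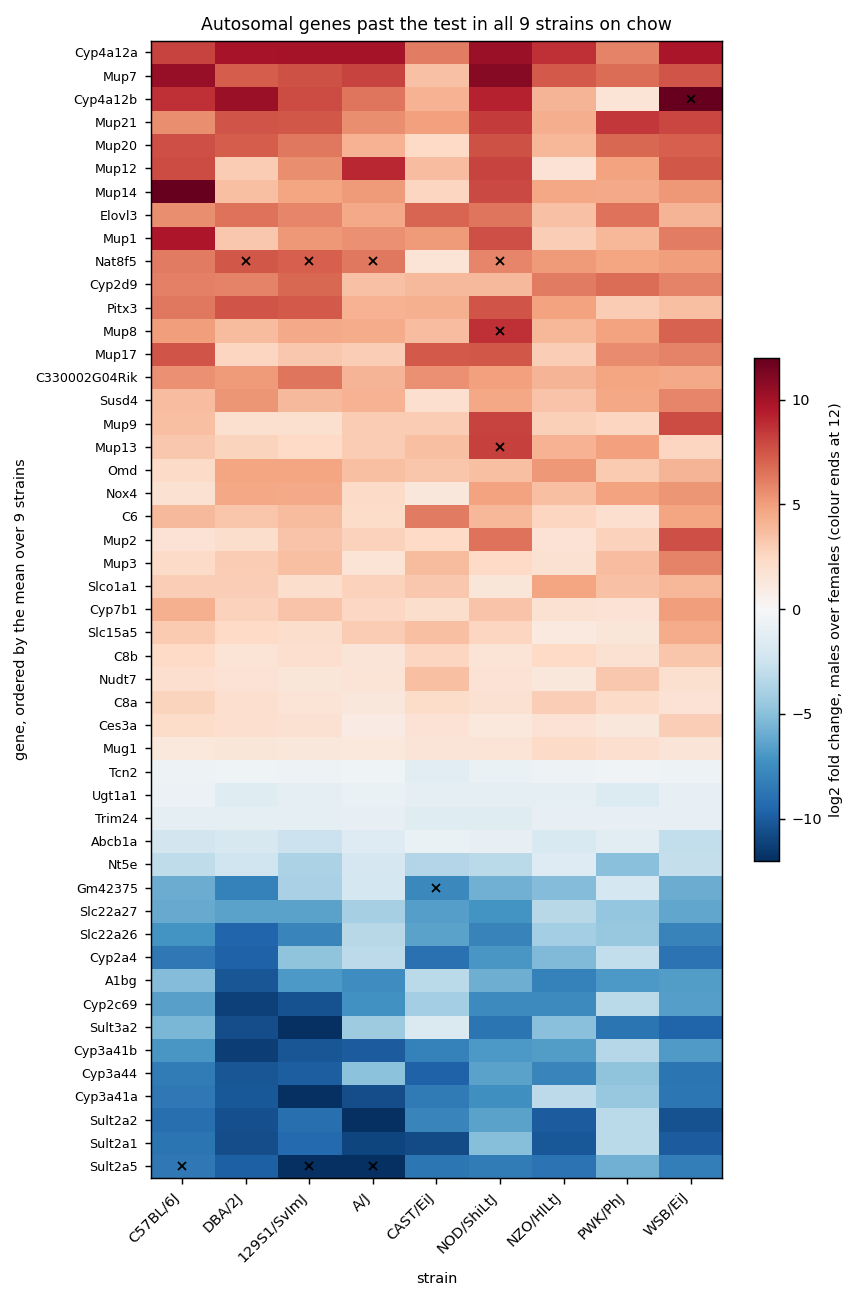
Log2 fold change (male over female) of the 49 shared genes in each of the 9 strains, as colour that ends at -12 and 12. A cross marks a group in which 1 sex had 0 counts in all its libraries, and every cell of a gene has the same sign.

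On the female side, the steroid sulfotransferases had the largest differences. Sult2a5, Sult2a1 and Sult2a2 encode hydroxysteroid sulfotransferases, which add sulfate to steroids and bile acids. Sult2a5 had 0 counts in every male of C57BL/6J, 129S1/SvImJ and A/J and at most 0.129 CPM in any male, against 0.154 to 42.9 CPM in females. A/J females, at 34.8, 41.6 and 38.4 CPM, were at least 2010-fold higher than their males, with the floor of 3 counts over the group. Sult2a2 ran from 0 to 2.73 CPM (median 0.0715) in males and from 3.33 to 129 CPM (median 37.9) in females, without overlap (log2 fold change -8.76, SE 0.26, adjusted p = 1.42e-27, edgeR). Sult2a1 was at most 0.537 CPM in all males of 8 strains, but PWK/PhJ males held 42.6, 80.1 and 207 CPM, beside PWK/PhJ females at 820.3, 1299.9 and 886 CPM. Those PWK/PhJ males stood above the NOD/ShiLtJ females, at 16.6, 12.8 and 6.26 CPM. Sult3a2 averaged -7.49, with its smallest difference, -1.72, in CAST/EiJ.

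Cytochromes P450 of the Cyp3a, Cyp2c and Cyp2a families followed. Cyp3a44 ran from 0.101 to 33.9 CPM (median 0.667) in males and from 27.8 to 764 CPM (median 349) in females (log2 fold change -7.91, SE 0.26). The male values above 5 CPM came from A/J (24, 33.9 and 9.43 CPM) and from PWK/PhJ, where the first 2 of 10.7, 15.7 and 1.05 CPM did so. Cyp3a41a averaged -8.26 (SE 0.27) and shares 95.3% of its windows with Cyp3a41b (-7.81), so the pair is best read as 1 signal. NZO/HlLtJ males held Cyp3a41a at 18, 137 and 152 CPM, where 129S1/SvImJ males held 0.0893, 0.0181 and 0.117 CPM. Cyp2c69 averaged -7.18. Cyp2a4, a steroid 15-alpha-hydroxylase, ran from 0.286 to 278 CPM (median 5.37) in males and from 205 to 3959 CPM (median 823) in females (log2 fold change -6.59, SE 0.24). PWK/PhJ males, at 162, 278 and 113 CPM, and A/J males, at 142, 146 and 157 CPM, were the highest for Cyp2a4. Gm42375 (-5.20), an antisense RNA on the other strand, overlaps Cyp2a4 at the start of that gene. Whether reads of Cyp2a4 (mean 571 CPM) enter Gm42375 (mean 0.869 CPM) was not tested.

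The other female-higher shared genes were transporters, a plasma glycoprotein and genes of smaller difference. Slc22a26, an organic anion transporter, ran from 0.0427 to 25.4 CPM (median 0.756) in males and from 30.8 to 202 CPM (median 126) in females without overlap (log2 fold change -6.55, SE 0.18, adjusted p = 1.29e-28, edgeR), and its relative Slc22a27 averaged -5.66. A1bg, whose promoter is printed above, ran from 2.62 to 1338 CPM (median 32.4) in females: DBA/2J females held 707, 1152 and 579.5 CPM and CAST/EiJ females 4.03, 9.38 and 3.26 CPM. Nt5e, the ectoenzyme CD73 that makes adenosine, averaged -3.06 (SE 0.08). Abcb1a, the drug exporter P-glycoprotein, averaged -1.79. Ugt1a1 (-1.10), which conjugates bilirubin, shares exons with other Ugt1a genes, and Tcn2 (-0.67) carries vitamin B12. Trim24, a cofactor of nuclear receptors, ran from 13.5 to 49.4 CPM (median 29) in males and from 26.3 to 110.2 CPM (median 64) in females (log2 fold change -1.12, SE 0.08, adjusted p = 9.42e-16, edgeR). Its difference lay between -0.96 in PWK/PhJ and -1.47 in CAST/EiJ, and its interaction F was 0.8 (adjusted p = 0.711, edgeR).

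Among the 49 shared genes, the strain with the smallest difference was PWK/PhJ for 15 genes, CAST/EiJ and NZO/HlLtJ for 10 each and A/J for 8. WSB/EiJ had the largest difference for 10 genes, DBA/2J for 8 and NOD/ShiLtJ for 7. These include Cyp4a12b in WSB/EiJ, Nat8f5 in DBA/2J, and Mup8 and Mup13 in NOD/ShiLtJ. For these genes the females of that strain had no counts, so the fitted size depends on the prior count and the place is uncertain. The median log2 fold change of the female-higher shared genes was -9.77 in DBA/2J and -3.32 in PWK/PhJ, and that of the male-higher ones ran from 3.29 in DBA/2J to 5.84 in NOD/ShiLtJ. DBA/2J thus had the largest median of the 9 strains on the female side and the smallest on the male side. The shared genes that missed the interaction test were Sult2a5, Trim24, Ugt1a1, Mug1, C8a and Mup8. Over all autosomal genes, 8 (0.0576%) had male and female libraries that did not overlap over all 53 chow libraries: Cyp4a12a, Cyp2d9, Elovl3, Mup8 and Mup21 in males, and Sult2a5, Sult2a2 and Slc22a26 in females. All of them are shared genes. On the high-fat diet, in other mice of the same strains, the mean difference of all 49 genes had the same sign in all 9 strains, where NZO/HlLtJ males have 1 library and no test was made. Over all autosomal genes, 7.3% had 1 direction in all 9 strains on chow, and the share on the high-fat diet was not counted. The left-out library labelled 129S1/SvImJ female CD 1 lay nearer the males of its strain at 49 of the 49 genes, and with it put back as a female the shared count fell to 13. The share of all genes at which it lay nearer the males was not counted.

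A step away from full sharing, 42 genes passed in 8 strains, 41 of them in 1 direction (20 higher in males, 21 higher in females), and 32 of the 42 passed the interaction test. The strain in which the gene did not pass was A/J or CAST/EiJ for 11 genes each, NZO/HlLtJ for 6, PWK/PhJ for 4, NOD/ShiLtJ or WSB/EiJ for 3 each, C57BL/6J for 2, and DBA/2J or 129S1/SvImJ for 1 each. The genes named next with a strain were chosen after their values were seen. In CAST/EiJ the log2 fold change was -0.17 (SE 0.40) for Capn8, a calpain protease that averaged 3.54, and 0.25 (SE 0.29) for Nat8, an acetyltransferase that averaged 3.93. In A/J it was 0.31 (SE 0.66) for Selenbp2, a selenium-binding protein that averaged 4.004, and -0.07 (SE 0.25) for Dpy19l3, a tryptophan mannosyltransferase that averaged 1.53. In PWK/PhJ it was 0.31 (SE 0.19) for Abcg2, a drug and urate exporter that averaged 1.38. Missing the threshold does not show that the sexes were alike: Cux2, the female-biased repressor, missed it in A/J at a log2 fold change of -2.26 (SE 0.67).

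The number of genes called within single strains differed widely. C57BL/6J had 1866 calls (13.4%), 1178 higher in males (8.48%) and 688 in females (4.95%), and PWK/PhJ 1203 (8.66%), 688 (4.95%) and 515 (3.71%). WSB/EiJ had 1098 (7.9%), 585 higher in males (4.21%) and 513 in females (3.69%), and 129S1/SvImJ 985 (7.09%), 335 (2.41%) and 650 (4.68%). DBA/2J had 982 (7.07%), 559 higher in males (4.02%) and 423 in females (3.04%), and CAST/EiJ 932 (6.71%), 506 (3.64%) and 426 (3.07%). NOD/ShiLtJ had 792 (5.7%), 415 higher in males (2.99%) and 377 in females (2.71%), and NZO/HlLtJ 451 (3.25%), 276 (1.99%) and 175 (1.26%). A/J had 259 (1.86%), 134 higher in males (0.964%) and 125 in females (0.9%). The order of the strains depended on the fit and on single libraries. When the libraries of each strain were fitted alone, NOD/ShiLtJ had the most calls (1783) and WSB/EiJ the fewest (105), with C57BL/6J at 373 and A/J at 604. Without C57BL/6J male CD 3 the count in C57BL/6J fell to 381, and without WSB/EiJ male CD 3 that in WSB/EiJ rose to 2450. Calls of A/J had the direction of an average call in 87.6% of cases, and those of PWK/PhJ in 67.6%.

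As a description, male minus female differences of mean log2 CPM were correlated between strains over the 12204 autosomal genes of at least 1 CPM. No p is given, since genes are not replicates. The correlation was lowest between 129S1/SvImJ and PWK/PhJ (0.417) and highest between DBA/2J and 129S1/SvImJ (0.743). Against the mean of the other 8 strains it was 0.606 in PWK/PhJ, 0.622 in CAST/EiJ and 0.819 in DBA/2J. Tested gene by gene, 1818 genes (13.1%) had a sex difference in at least 1 strain that departed from the mean of the other 8 strains. PWK/PhJ had 641 such genes, CAST/EiJ 427, NOD/ShiLtJ 262, C57BL/6J 239, DBA/2J 199, NZO/HlLtJ 181, WSB/EiJ 172, 129S1/SvImJ 161 and A/J 48. The count in at least 1 strain was 3003 without WSB/EiJ male CD 3.

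The gene with the largest interaction F was Cyp2b9, a female-biased cytochrome P450 (F = 69.6, adjusted p = 1e-16, edgeR). In A/J it was high in both sexes, with males at 406, 566 and 311 CPM and females at 446, 567 and 483 CPM. In 129S1/SvImJ it was nearly silent in both, with males at 0.643, 0.614 and 0.369 CPM and females at 0.0832 and 0.111 CPM, males being higher by a log2 fold change of 2.46 (SE 0.73). Every other strain was strongly female-biased. C57BL/6J males held 0.523, 0.691 and 0.609 CPM and females 385, 423 and 509 CPM, a log2 fold change of -9.49 (SE 0.54). NOD/ShiLtJ males (16.5, 7.46 and 19.2 CPM) and NZO/HlLtJ males (58.6, 30.1 and 31.9 CPM) were intermediate. The A/J males and the 129S1/SvImJ females are thus the groups that lie apart from those of the same sex.

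Cyp2c40 (F = 52.7), another female-biased cytochrome P450, was high in males of other strains. PWK/PhJ males held 112, 101 and 101 CPM and PWK/PhJ females 125, 76.9 and 125 CPM, and CAST/EiJ males 56.6, 41.3 and 25.9 CPM beside females at 87, 117 and 92 CPM. Males of the other 7 strains stood at most at 7.54 CPM, and DBA/2J had the largest difference, -10.58 (SE 0.59), with females at 389.9, 337 and 261 CPM. WSB/EiJ females were the lowest of their sex, at 4.2, 11.8 and 5.9 CPM. Cyp2c40 shares 45.9% of its windows with another gene, most with Cyp2c69. Sult3a1, a sulfotransferase, was at 1126, 1164 and 892 CPM in CAST/EiJ males and 1711, 1665 and 1524 CPM in CAST/EiJ females, against 0.161, 0 and 0.214 CPM and 1747 and 1331 CPM in 129S1/SvImJ. Cyp3a16 was at like levels in both sexes of CAST/EiJ, at 4.53, 7.56 and 8.53 CPM in males and 5.18, 8.29 and 5.19 CPM in females, where NZO/HlLtJ females held 397, 266 and 459 CPM. Its medians over all strains were 0.208 CPM in males and 64.4 CPM in females, and 8.53 CPM was the highest male value. Female bias was thus absent from the calls in CAST/EiJ in 2 ways. Sult3a1 was high in both sexes, while for Cyp3a16 the females stood below the median of their sex and the males above that of theirs.

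Serpina1e, which encodes an isoform of alpha-1-antitrypsin, came next to Cyp2b9 in F (59.1, adjusted p = 9.71e-16, edgeR) and split the strains into distinct patterns. It was male-biased in PWK/PhJ, at 3156, 2453 and 4961 CPM in males and 8.02, 12.9 and 10.6 CPM in females, a log2 fold change of 8.39 (SE 0.49). C57BL/6J (5.73), NZO/HlLtJ (5.96), A/J (3.59) and CAST/EiJ (1.43) passed in the same direction. In DBA/2J, 129S1/SvImJ, NOD/ShiLtJ and WSB/EiJ both sexes were low: DBA/2J males held 101, 101 and 84.1 CPM and females 73, 82.9 and 76.9 CPM. CAST/EiJ females, at 2557, 1516 and 2044 CPM, stood above the females of all other strains. Serpina1e shares 19.7% of its windows with relatives, so its reads may include theirs.

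**Figure D3:**
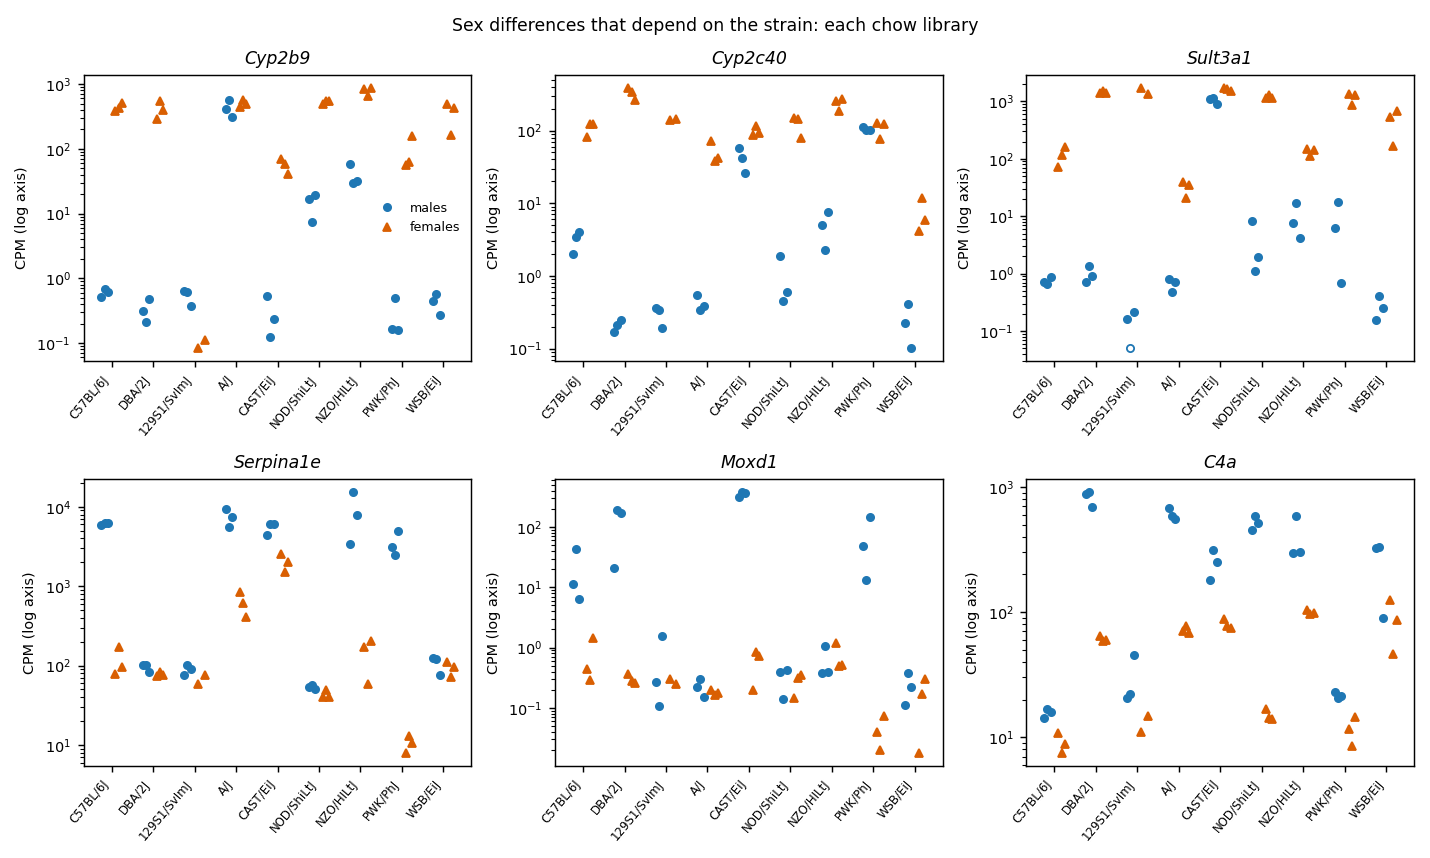
CPM (log axis) of genes with a strain-dependent sex difference in each chow library, males and females side by side within each strain. Open symbols at the bottom edge stand for 0 counts. A/J males reach the A/J females for Cyp2b9, and PWK/PhJ males the PWK/PhJ females for Cyp2c40.

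Some genes were male-biased mainly in wild-derived strains. Cyp2d11 (F = 47.2) held 57, 78.4 and 64.1 CPM in PWK/PhJ males and 0.676, 0.932 and 1.25 CPM in PWK/PhJ females, and 10.1, 13.6 and 15.4 CPM in CAST/EiJ males and 1.36, 1.32 and 1.82 CPM in CAST/EiJ females. All other groups were at most at 1.3 CPM. Echdc2, an enoyl-CoA hydratase family member, was at 268, 232 and 292 CPM in CAST/EiJ males and 49.6, 55.7 and 52.8 CPM in CAST/EiJ females (log2 fold change 2.33, SE 0.14), and its difference was 1.85 in PWK/PhJ and at most 0.65 in the other 7 strains. In the test of the 3 wild-derived strains against the other 6, 594 genes (4.27%) differed, 356 with a more male-sided difference in wild-derived strains and 238 with a more female-sided one. Cyp2d11 (3.27, SE 0.21) and Echdc2 (1.27, SE 0.09) were among them, as was Cyp2c40 (5.25, SE 0.37). In WSB/EiJ, itself wild-derived, Echdc2 stood at 0.52 and Cyp2c40 at -4.94, beside 0.65 and -5.10 in C57BL/6J. The count was 1334 without WSB/EiJ male CD 3.

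Within the Mup family the size of the difference varied by strain. Mup14 (F = 43) reached 574, 769 and 834 CPM in C57BL/6J males, against at most 13.2 CPM in males of the other strains, and 0.117, 0.173 and 0.247 CPM in C57BL/6J females. Mup11 (F = 29.5), Mup2 (29.3), Mup12 (29.1) and Mup1 (28.9) also had large F values. Mup18 (F = 35.4) changed direction. WSB/EiJ males held it at 22.9, 63 and 21.7 CPM and females at 0.217, 0.407 and 0.234 CPM (log2 fold change 6.95, SE 0.74). In 129S1/SvImJ males stood at 3.8, 2.58 and 9.64 CPM and females at 24.7 and 35.6 CPM (-2.50, SE 0.59, adjusted p = 0.00594, edgeR), and A/J was also female-higher (-2.47, SE 0.63, adjusted p = 0.0236). Since 87.5% of the windows of Mup18 occur in another gene, mostly Mup9, the locus behind this signal is uncertain. C6 (F = 28.2) was male-higher in every strain and largest in CAST/EiJ, where males held 1289, 1246 and 1482 CPM and females 21.9, 17.9 and 15.1 CPM.

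In all, 185 autosomal genes (1.33%) passed as higher in males in at least 1 strain and higher in females in another, 180 of them past the interaction test and 113 called in exactly 2 strains. Cyp2b10, a target of the nuclear receptor CAR, was the clearest among enzymes: CAST/EiJ females held 133, 113 and 141 CPM and males 0.0812, 0.084 and 0.275 CPM (log2 fold change -9.74, SE 1.14). In 129S1/SvImJ males held 6.31, 7.01 and 7.39 CPM and females 0.616 and 0.237 CPM (4.02, SE 1.07, adjusted p = 0.015, edgeR). WSB/EiJ females were the highest group, at 325, 766 and 284 CPM, and WSB/EiJ male CD 3 lay far above the other 2 males (0.774, 0.725 and 25.6 CPM). Cpne5, a copine, was higher in males of DBA/2J (3.84) and in females of PWK/PhJ (-2.47), and the high values of DBA/2J males, 2.07, 2.75 and 14 CPM, come mainly from 1 library. The count was 335 without WSB/EiJ male CD 3 and 455 without the libraries that stand apart.

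Of the 28 complement and acute-phase genes listed, whose products include proteins that rise in blood during inflammation, 4 had opposite calls (Apcs, Lcn2, Saa1 and Saa2), beside 1.33% of all autosomal genes. Without NZO/HlLtJ male CD 2 there were 2, Saa1 and Saa2, beside 1.64%, and without C57BL/6J male CD 3 there were 3, beside 1.42%. Without WSB/EiJ male CD 3 there were 4, beside 2.41%, and without all 3 libraries that stand apart there were 2, beside 3.27%. Saa2, serum amyloid A, was at 874, 1199.5 and 898 CPM in C57BL/6J males and 6.02, 6.71 and 9.47 CPM in C57BL/6J females (log2 fold change 7.06, SE 1.76, adjusted p = 0.00622, edgeR), with every male above every female. CAST/EiJ was female-higher, with 2.09, 1.58 and 11.6 CPM in males and 303, 442 and 31.1 CPM in females (-5.67, SE 1.66). The NZO/HlLtJ call rests on male CD 2 alone: the males held 16.1, 28599 and 26.1 CPM and the females 8.5, 18.1 and 20.8 CPM. The difference in NZO/HlLtJ was 9.24 (adjusted p = 0.00174, edgeR) with that library and 0.42 (adjusted p = 0.966, edgeR) without it, while Saa2 kept both its C57BL/6J and CAST/EiJ calls. Lcn2, which binds bacterial siderophores, showed the same library, with NZO/HlLtJ males at 1.32, 1662 and 2.8 CPM. Its deviation in NZO/HlLtJ was 10.33 with that library and 2.25 without it, no longer past the threshold (adjusted p = 0.377, edgeR). The average of Lcn2 went from -0.71 (adjusted p = 0.125, edgeR) to -1.61 (adjusted p = 3.95e-07, edgeR) without that library. Saa1 (F = 7.44) and Wfdc21 (F = 5.35) had opposite calls as well. Without NZO/HlLtJ male CD 2 the NZO/HlLtJ difference of Saa1 went from 8.19 (adjusted p = 0.00183, edgeR) to 0.60 (adjusted p = 0.943). That of Wfdc21 went from 1.13 (adjusted p = 0.488, edgeR) to -2.43 (adjusted p = 0.000104). The granulocyte marker S100a8 stood in the same library, NZO/HlLtJ male CD 2, at the middle one of 0.59, 61.8 and 1.41 CPM. Whether inflammation in single mice has a part in these differences was not tested.

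**Figure D4:**
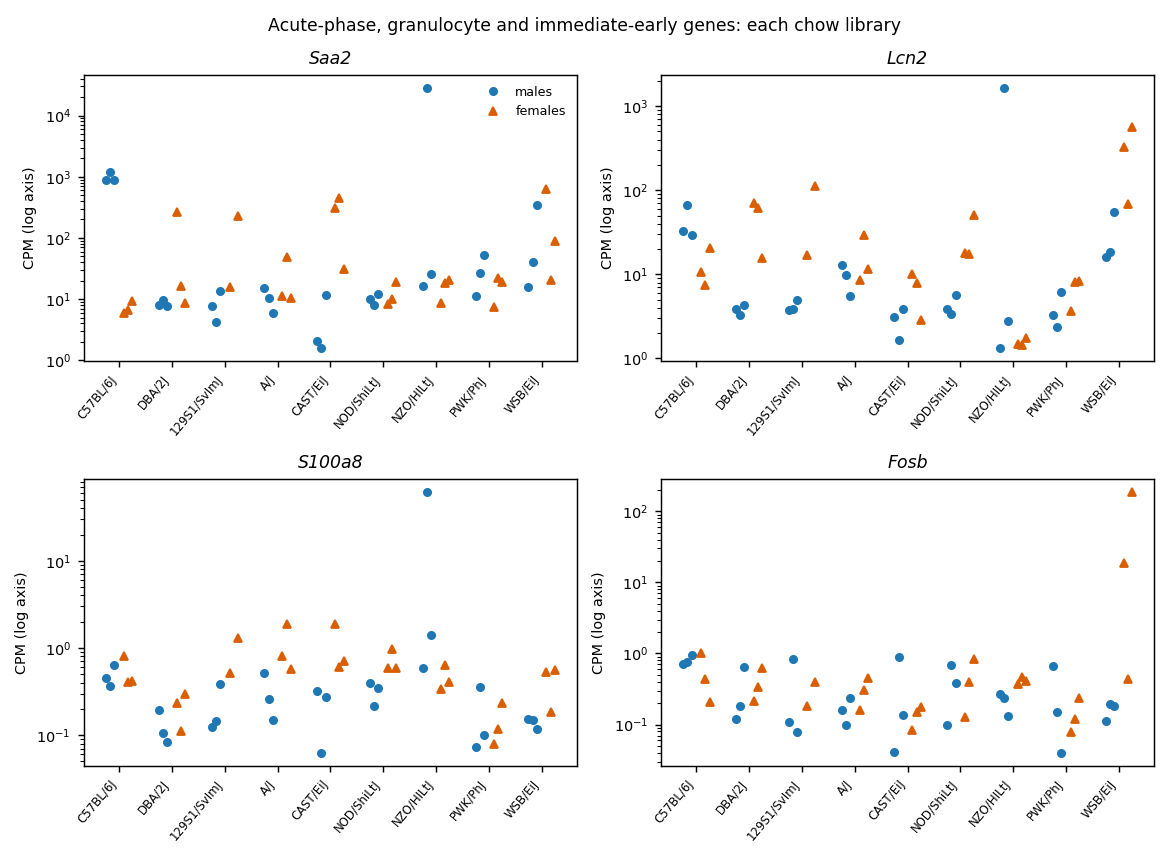
CPM (log axis) of acute-phase, granulocyte and immediate-early genes in each chow library, males and females side by side within each strain. NZO/HlLtJ male CD 2 stands far above its group for Saa2 and Lcn2, and 2 WSB/EiJ females do so for Fosb.

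For each strain, the genes with the highest and lowest departure from the other 8 strains were read against their libraries. In C57BL/6J these were Saa2 (7.72) and Cyp2b9 (-4.10). In DBA/2J and PWK/PhJ the highest was Moxd1, a copper monooxygenase family member, at 5.38 and 7.44. Moxd1 was male-biased in C57BL/6J, DBA/2J, CAST/EiJ and PWK/PhJ: CAST/EiJ males held 318, 384 and 364 CPM and females 0.2, 0.853 and 0.722 CPM, while all libraries of 129S1/SvImJ, A/J, NOD/ShiLtJ, NZO/HlLtJ and WSB/EiJ were at most at 1.54 CPM. The lowest were Cyp2c40 in DBA/2J (-5.62) and Cyp4a12b in PWK/PhJ (-6.41). In 129S1/SvImJ the extremes were Cyp2b10 (8.47) and Sult3a1 (-6.83), in A/J Cyp2b9 (6.33) and Mup18 (-5.00), and in CAST/EiJ Cyp3a16 (9.18) and Cyp2b10 (-7.01). NOD/ShiLtJ had Mup9 (4.81) and Cyp2a22 (-3.98). Cyp2a22 was female-biased there, at 0.724, 0.974 and 1.9 CPM in males and 91.2, 114 and 63.1 CPM in females, and at most 0.662 CPM in either sex of DBA/2J.

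The last pair of strains had extremes that rest partly on single libraries. NZO/HlLtJ had Lcn2, described above, and Mup12 (-4.49) as its lowest. WSB/EiJ had Mup18 (5.60) as its highest and Fosb, an immediate-early transcription factor, as its lowest (-8.79). The WSB/EiJ females held Fosb at 18.8, 0.44 and 188 CPM, so 1 of the 3 was in the range of the other strains, and the males held 0.111, 0.192 and 0.185 CPM. The departure of Saa2 in C57BL/6J, with n = 3 a sex, lost its call when any 1 of the 3 females or male CD 3 was left out (adjusted p between 0.058 and 0.181, edgeR), while its size stayed between 7.60 and 7.94.

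Genes of the growth hormone axis and the regulators that act with it were read against all autosomal genes, of which 17.1% were higher in males and 17.2% higher in females on average. Of 18 axis genes, 3 were higher in males, a share near that background, 5 were higher in females and 10 did not pass (median log2 fold change -0.21, against -0.01 over all autosomal genes). Prlr, the prolactin receptor, averaged -1.12 (SE 0.12) and ran from 6.02 to 255 CPM (median 74.7) in males and from 52.1 to 475 CPM (median 183) in females, while PWK/PhJ had 111, 104 and 74.7 CPM in males and 113, 52.2 and 107 CPM in females. Lepr, the leptin receptor, averaged -2.10 (SE 0.30), and WSB/EiJ male CD 3 stood at the last of 5.24, 6.59 and 417 CPM. Without that library the average of Lepr was -2.61 and its difference in WSB/EiJ went from -0.59 (adjusted p = 0.727, edgeR) to -5.20 (adjusted p = 2.87e-05, edgeR). Ghr, the growth hormone receptor, averaged 0.35 and Igf1, its secreted effector, 0.36. The Igf1 difference was 1.54 (SE 0.20) in WSB/EiJ, the 1 strain in which it passed, with males at 573, 678 and 427 CPM and females at 221, 186 and 172 CPM. Grb10, an adaptor that restrains insulin and growth factor receptors, averaged -0.60, and 129S1/SvImJ females (10.4 and 10.2 CPM) stood above the females of all other strains. Stat5b (-0.02) and Jak2 (0.03) did not pass.

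Of 21 regulators, 8 were higher in females, above the 17.2% of all genes, 3 higher in males, near the 17.1%, and 10 did not pass (median -0.08). Cux2, at from 0.444 to 8.94 CPM (median 2.04) in males and from 0.971 to 115 CPM (median 18.6) in females, averaged -3.17 (SE 0.23, adjusted p = 2.32e-14, edgeR) and passed in 8 strains. Its interaction F was 0.941 (adjusted p = 0.621, edgeR). Tox, an HMG-box factor, averaged -1.92 and was largest in PWK/PhJ (-4.17, SE 0.44). Pparg, a driver of fat storage, averaged -1.06, with -3.08 in CAST/EiJ and -2.82 in WSB/EiJ and values of 0.89 in DBA/2J and -0.07 in NZO/HlLtJ that did not pass. Esr1, the estrogen receptor, averaged -0.44. Hnf4a (0.00), Onecut1, which encodes HNF6 (-0.13), and Bcl6 (0.58, SE 0.26) did not pass.

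The lists of known sex-biased liver genes, drawn up with earlier results of these data known and so no independent evidence, mostly had the listed direction on average, but fewer were shared. All 38 male-biased genes were higher in males on average, 31 passed the interaction test and 15 were shared by all strains. Of 57 female-biased genes, 52 were higher in females, 2 higher in males and 3 did not pass; 45 passed the interaction test and 12 were shared. Over all autosomal genes 13.3% passed the interaction test and 0.353% were shared. By family, 11 of 16 Sult genes were higher in females and 2 in males, and of 73 Cyp genes 31 were higher in males and 25 in females. Of 310 Zfp zinc-finger genes 77 were higher in females and 20 in males, with a median of -0.07, beside 17.2% and 17.1% of all genes. The scaling bears on so small a median, since the median of all genes was -0.08 with library size alone.

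Metabolic pathways were counted in the same way. Among 20 steroid genes 10 were higher in males and 5 in females. Hsd3b5, a steroid dehydrogenase, averaged 5.11 (SE 0.35) and missed the threshold in NZO/HlLtJ, whose females held 23.1, 6.89 and 17.8 CPM and males 48.3, 17.2 and 98.4 CPM. Cyp17a1, which makes androgen precursors, averaged -2.84 and missed it in WSB/EiJ, where males held 446, 422 and 409.9 CPM and females 823, 653 and 658 CPM. Ugt2b38 (2.65) conjugates small molecules and was male-biased in C57BL/6J (6.40) with values near 0 in 129S1/SvImJ (-0.08). Of 21 bile acid genes 7 were higher in males, 3 in females and 11 did not pass. Cyp39a1, the 24-hydroxycholesterol hydroxylase, averaged -2.33 and was at most at 0.614 CPM in either sex of NZO/HlLtJ. Cyp8b1, the sterol 12-alpha-hydroxylase, averaged 0.60, and Cyp7a1, the rate-limiting enzyme of bile acid synthesis, -0.56 without passing.

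Fatty acid oxidation genes passed in both directions (6 of 24 higher in males, 7 in females), led by Acot3 (-1.75), a peroxisomal thioesterase, and Pdk4 (-0.91), a brake on glucose oxidation. Of 20 lipogenic genes 2 were higher in males, Elovl3 and Gpam (0.26), and 6 in females, among them Pnpla3 (-0.60) and Fasn (-0.40). Of 19 cholesterol synthesis genes 6 were higher in males, with Msmo1 (0.46) the largest, 1 was higher in females and 12 did not pass. Of 28 complement and acute-phase genes 13 were higher in males and 2 in females. C4a, the sex-limited complement protein, averaged 2.22 (SE 0.11) and passed in 7 strains: NOD/ShiLtJ males held 448, 588 and 518 CPM and females 16.8, 14.4 and 13.9 CPM, whereas C57BL/6J males held 14.3, 16.8 and 15.9 CPM and females 10.8, 7.54 and 8.77 CPM. These counts stand beside 17.1% of all autosomal genes higher in males and 17.2% higher in females.

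Zonation and clock genes were counted against the same background. Of 12 pericentral genes 3 were higher in males, including Cyp1a2 (0.78), and 3 in females, including Lgr5 (-0.55). Of 13 periportal genes 1 was higher in males, 2 in females and 10 did not pass. The 1 higher in males was Cyp2f2 (1.68, SE 0.09), which ran from 0.40 in CAST/EiJ to 3.75 in WSB/EiJ, where males held 1247, 1249 and 479 CPM and females 62.8, 51.2 and 107 CPM. Of 18 clock genes 3 were higher in males and 2 in females, shares at or below the 17.1% and 17.2% of all genes. Dbp, a clock output gene, averaged 1.48 (SE 0.34) with a wide spread within groups, such as 25.2, 21 and 83.1 CPM in PWK/PhJ males and 2.27, 2.46 and 46.1 CPM in CAST/EiJ males. The hour of death of each mouse is not given in the sources used here, and its part was not tested.

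Markers of the cell types of the liver were checked in the same fit. Summed CPM of 10 hepatocyte markers ran from 83217 to 211150 CPM (median 122150 CPM) in males and from 106110 to 193030 CPM (median 138800 CPM) in females, with the higher mean in males in 2 of the 9 strains, so the labelled tissue held its defining markers in all libraries. Of the marker genes measured, 7 of 11 endothelial, 5 of 11 lymphocyte, 3 of 11 macrophage and 2 of 12 stellate genes were higher in females on average, beside 17.2% of all autosomal genes, and 1 gene of these lists, Cd4 (0.42), was higher in males. The endothelial share lies above that background and the stellate share near it. The lymphocyte share also lies above it, but it counts Cd8a, Ccl5 and Cd3g, each of which lost its call in at least 1 fit with 1 library left out and with each strain as 1 observation (adjusted p = 0.0639, 0.143 and 0.0954 in the latter, limma). The macrophage calls of Cd68 and Csf1r were lost in that limma test too (adjusted p = 0.237 and 0.0745), and the stellate call of Dcn in several fits with 1 library left out (adjusted p up to 0.0734, edgeR). Lyve1 (-0.61) led the endothelial, Trbc2 (-0.70) the lymphocyte, Marco (-0.92) the macrophage and Ecm1 (-0.40) the stellate genes. The ranges of their summed levels overlapped between the sexes, but the stellate sum had the higher mean in females in all 9 strains, with medians of 416 CPM in males and 511 CPM in females. The macrophage sum had medians of 429 and 542 CPM, and its mean was higher in males in 4 strains. The endothelial sum, with a higher male mean in 3 strains, ran from 242 to 504 CPM (median 413) in males and from 276 to 551 CPM (median 433) in females. The lymphocyte sum ran from 2.62 to 43 CPM (median 19.4) in males and from 3.05 to 47.6 CPM (median 24.8) in females. The granulocyte sum ran from 0.586 to 269 CPM (median 1.19) in males and from 0.898 to 10.9 CPM (median 2.45) in females, and 7 of the 8 granulocyte genes passed the interaction test, beside 13.3% of all genes. Among them Ngp, a neutrophil granule protein, missed the threshold without NZO/HlLtJ male CD 2 (adjusted p = 0.0527, edgeR). Ngp and S100a9, a calcium-binding protein of neutrophils, also missed it with limma in place of edgeR (adjusted p = 0.17 and 0.1). Col1a1, a collagen of scar tissue, stood at 4.93 and 64.2 CPM in 129S1/SvImJ females, 1 high library of 2. Of 5 fat markers 1 was higher in males, Car3 (1.40), and 1 in females, Pparg, and 3 did not pass. Their sum is mostly Car3 and had the higher mean in males in 8 of the 9 strains (medians 566 and 250.2 CPM). Of 12 pancreas markers 1, Cela1 (0.80), was in the table. The globin genes Hba-a1 (0.36) and Hbb-bs (0.39), from red blood cells, did not pass. The part of cell composition in the sex differences was not tested.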

How the data were processed

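The deposited table holds whole-number read counts per gene for each liver library. Although the authors' name for the table speaks of TMM, the values are treated as raw: all are whole, and rescaling them slightly made their low-count histograms rougher (0.991 as deposited, at least 2.14 rescaled, as the ratio of the histogram's local scatter to counting noise). FastQC, STAR 2.73a and edgeR 3.24.3 are named per the submitters' processing notes. The counter, genome build, annotation and strand are not given in the sources used here. Gene symbols and positions came from GENCODE M21, which named 14327 of the 14330 genes, and rows that name no gene (reads mapped to several places, ambiguous or outside genes) stayed out of library sizes. Reads mapped to several places made up 13.4 to 26.5% of a library, ambiguous ones 4.76 to 6.54% and those outside genes 2.91 to 8.4%.

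From these counts, edgeR 4.0.16 in R 4.3.3 fitted 18 strain by sex group means over 53 chow libraries by quasi-likelihood (TMM factors 0.837 to 1.13, 35 residual degrees of freedom, common dispersion 0.044). The tests were the average over strains, each strain, the interaction, each strain against the mean of the other 8, and wild-derived against other strains. P-values were adjusted by Benjamini-Hochberg over all 14330 genes, at a threshold of 0.05, and autosomal genes are reported. Genes with 0 counts in both sexes of a strain (82 autosomal) were not called in tests that span strains. CPM are counts per 1000000 of the TMM-scaled library.

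Genes named in full were protein-coding with a mean of at least 1 CPM: the 10 shared genes of largest average difference in each direction, the 12 of largest interaction F, 8 with opposite calls, and the highest and lowest departure in each strain. From the lists, some of the most changed members and some others are named, and not every list is described. Other shared genes are named because they belong to the shared set. The members and lists were chosen with earlier results of these data known. Alternatives were DESeq2 1.42.0, limma 3.58.1, other scalings, filters, fits and replication units, and each library left out in turn. In data simulated from these libraries (14330 genes, 200 of them changed by a log2 of 2), 99.5% of changed genes were recovered by the average test, 95.5% as shared by all 9 strains and 97% by the interaction test. Promoters and transcripts came from RefSeq and GENCODE.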

Additional observations from a re-analysis of the deposited data

Results flagged for a closer look

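For 40 of the genes named by rule, the sex difference itself differed between strains by the interaction test, given here as F (8 numerator degrees of freedom, edgeR quasi-likelihood, adjusted p under the threshold for each). Among female-biased enzymes these were Cyp2b9 (69.6), Cyp2c40 (52.7), Sult3a1 (27.6), Sult3a2 (25.4), Cyp2a22 (24.2), Sult2a1 (18.4), Cyp3a16 (18.1), Cyp2b10 (17.2), Cyp2a4 (17.1), Cyp3a41a (16.8), Sult2a2 (12.7), Cyp2c69 (12.2), Cyp3a44 (11) and Cyp3a41b (5.95), with the plasma glycoprotein A1bg (6.34). Among urinary proteins they were Mup14 (43), Mup18 (35.4), Mup11 (29.5), Mup2 (29.3), Mup12 (29.1), Mup1 (28.9), Mup20 (14.9), Mup7 (14.4), Mup9 (9.94) and Mup21 (8.11). Other male-biased genes were Serpina1e (59.1), Cyp2d11 (47.2), Echdc2 (37), C6 (28.2), Cyp4a12b (28.1), Moxd1 (18.3), Cyp4a12a (9.06), Nat8f5 (8.22) and Elovl3 (7.07). Acute-phase, immediate-early and remaining genes were Lcn2 (7.95), Saa2 (7.79), Saa1 (7.44), Wfdc21 (5.35), Fosb (6.39) and Cpne5 (8.62). They span genes with the same direction in all strains and genes that change direction. No explanation was weighed.

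The library labelled 129S1/SvImJ female CD 1, used in no comparison, lay nearer the 129S1/SvImJ males than its females at 49 of the 49 shared genes (the share over all genes was not counted), besides its Xist and Ddx3y levels. It drew attention as a signal in data outside the comparisons.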

How the results depend on the processing

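Of the 89 average differences, 66 interaction F values and 18 departures that were refitted, none reversed. Calls were lost in 82 of 874 refits of the averages (45 of the 89 genes), 9 of 583 of the interaction and 1 of 159 of the departures, and with 1 library left out in 109 of 4717, 45 of 3498 and 5 of 954. The cause of each change was not tested. With the 3 libraries that stand apart left out, an alternative chosen after seeing the data, the counts were 455 opposite, 3318 interaction, 3708 strain-departing and 1822 wild-derived against other strains. By strain they were then 1774 in 129S1/SvImJ, 474 in A/J, 533 in C57BL/6J, 1441 in CAST/EiJ, 1363 in NOD/ShiLtJ, 1846 in PWK/PhJ and 3007 in WSB/EiJ. DESeq2 gave 299 opposite, 3073 interaction and 2926 departing genes, and 1 fit of all 36 groups of both diets 370, 3637 and 3232. A minimum absolute log2 fold change of 1 left 376 average, 86 opposite, 1026 departing and 217 wild-derived calls. It left 606 in 129S1/SvImJ, 507 in C57BL/6J, 521 in CAST/EiJ, 527 in DBA/2J, 386 in NOD/ShiLtJ, 640 in PWK/PhJ and 558 in WSB/EiJ. Fitting the libraries of a strain alone gave 355 in 129S1/SvImJ, 604 in A/J, 373 in C57BL/6J, 407 in CAST/EiJ, 1739 in DBA/2J, 1783 in NOD/ShiLtJ, 235 in NZO/HlLtJ and 105 in WSB/EiJ. With the genes of lowest counts removed the counts were 596 in 129S1/SvImJ, 171 in A/J and 259 in NZO/HlLtJ. With each strain as 1 observation, 1770 averages passed. With 129S1/SvImJ female CD 1 put back, 235 passed in 129S1/SvImJ and 13 were shared.

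With each library left out in turn, the counts ran from 4183 to 5102 (average), 149 to 335 (opposite), 1485 to 2983 (interaction), 41 to 54 (shared), 1480 to 3003 (departing) and 436 to 1334 (wild-derived). By strain they ran from 193 to 1234 in 129S1/SvImJ, 147 to 326 in A/J, 381 to 2505 in C57BL/6J, 467 to 1101 in CAST/EiJ and 577 to 1139 in DBA/2J. They ran from 397 to 988 in NOD/ShiLtJ, 269 to 520 in NZO/HlLtJ, 763 to 1484 in PWK/PhJ and 571 to 2450 in WSB/EiJ, and the high-fat count stayed at 49. Libraries that moved a strain count by over 1.5 times were female 3 (193) and male 2 (428) of 129S1/SvImJ, female 1 (147) and male 3 (157) of A/J, and females 1 (705) and 2 (1016) and male 3 (381) of C57BL/6J. In the other strains they were CAST/EiJ male 2 (467), DBA/2J females 2 (629) and 3 (577), NOD/ShiLtJ females 1 (423) and 2 (416) and male 2 (397), NZO/HlLtJ female 3 (269), PWK/PhJ female 2 (763), and WSB/EiJ female 2 (642) and males 1 (571), 2 (682) and 3 (2450). WSB/EiJ male 3 gave the highest opposite, interaction, departing and wild-derived counts. The median log2 fold change of all genes was -0.00972 with TMM and -0.0842 with library size alone. No paired analysis was possible because the replicate numbers were given in accession order and the labels tie no male to a female. At the depth of these libraries, genes far below 1 CPM rest on few reads, so a missed call there does not show equal expression.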
